A study of Mus musculus with 8 samples.

Results

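Peg3, Zim2, Inpp5f, Tspan32 and Klf14 are imprinted mouse genes that lie outside the Snhg14 domain, the stretch of proximal chromosome 7 best known for parent-specific transcripts in the brain. They were chosen by their gene symbol, and all of the probe sets that carry it were taken, which gave 5 genes with 8 probe sets among 9607 genes with a probe set of a single symbol. Peg3 and Zim2 lie on proximal chromosome 7, Inpp5f and Tspan32 on distal chromosome 7, and Klf14 on chromosome 6. The RefSeq gene table lists 4 of the 5 as protein-coding and Zim2 as a long noncoding RNA, so that the description of all 5 as protein genes does not hold for Zim2. RNA came from the brain of mice heterozygous for the reciprocal translocation T9H (T9H/+) of chromosomes 7 and 15. The first kind of sample, here called paternal-7, carried a paternal duplication of proximal chromosome 7 with a maternal duplication of proximal chromosome 15. The second kind, maternal-7, carried a maternal duplication of proximal chromosome 7 with a paternal duplication of proximal chromosome 15. Each kind was sampled in 4 contexts, whole brain of 13.5 dpc and 15.5 dpc embryos (days post coitum), neonatal cortex, which the labels also call forebrain, and neonatal cerebellum, with 1 Affymetrix 430B array for each of the 8 combinations.

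Imprinted genes are transcribed mainly from the copy inherited from one parent, because that copy and its partner carry different marks, often DNA methylation, set in the egg or the sperm. In the offspring of T9H carriers a chromosome part that is duplicated from one parent is lacking from the other, so that a gene of that part expressed only from the father's copy is active in paternal-7 animals and silent in maternal-7 animals. Peg3, a zinc finger gene of the brain and placenta, is expressed from the father's copy, and its start lies in a region that is methylated on the mother's copy. Zim2, a neighbour of Peg3, is known in mouse as expressed from the mother's copy. Inpp5f encodes a phosphoinositide phosphatase of endosomes, and a shorter variant of it that starts within the gene is expressed from the father's copy in mouse brain. Tspan32 (also named Tssc6 and Phemx) encodes a tetraspanin of blood cells and lies in the imprinted Kcnq1 region, and Klf14, a Kruppel-like transcription factor, is expressed from the mother's copy. Genes outside the duplicated parts have a copy from each parent in both kinds of animal. The labels do not give the breakpoints. Since chromosomes 7 and 15 were exchanged together, an effect of either cannot be told apart from one of the other.

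The deposited MAS5 signals had the same trimmed mean, 499.9, on all 8 arrays, and array medians between 229.8 and 285.7 signal units. Tests were run on the 13221 of 22511 probe sets that exceeded the median of at least 2 arrays. Differences are given as log2(signal + 58.5) with the standard error (SE) of a limma model that has a level for each context and 1 duplication effect, and p-values were adjusted over all tested probe sets. No combination had a second array, the labels do not say how many animals gave an RNA or whether it was pooled, and the error comes from how far the 8 arrays depart from that model, so that it may be technical. As a check of the labels, the only probe set called for the duplication, 1 of 3 of Snhg14, a noncoding RNA of the father's copy, read 370.7 to 868.9 signal units in paternal-7 arrays and 2.61 to 7.54 in maternal-7 arrays. The other Snhg14 probe sets were separated the same way, at 667.3 to 2372 against 0.262 to 33.9 and 131.1 to 397.7 against 6.7 to 38.8, without passing the test. The labelled regions were checked on the markers on the array. Of the 4 cortex markers tested, 3 were higher in cortex than in cerebellum (Neurod2, Bcl11b and Slc17a7). Of the 3 cerebellum markers tested, 1, Tfap2b, was higher in cerebellum. In whole-tissue RNA, fewer cells of a type and less RNA per cell cannot be told apart.

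Of the 5 genes, 3 stood above the array median on all 8 arrays in every probe set, namely Inpp5f, Tspan32 and Klf14. Inpp5f probe set A read 19.6 to 96.8 times the array median and exceeded at least 99.2% of the probe sets of its array. Tspan32 read 3.96 to 10 times the median, Inpp5f probe set B 1.86 to 14.7 times, Klf14 1.07 to 4.37 times and Inpp5f probe set C 1.25 to 1.86 times. Zim2 exceeded the median on 2 arrays, the paternal-7 brain at 15.5 dpc and the maternal-7 cerebellum. Peg3 probe set A did so on 1, the paternal-7 brain at 15.5 dpc, and Peg3 probe set B on 0, where its highest signal was 0.606 of the median. Probe sets are lettered by falling mean signal, and levels of different probe sets cannot be compared with each other. With these signals 6 probe sets of 4 genes could be tested, and Peg3 could not.

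**Figure D1:**
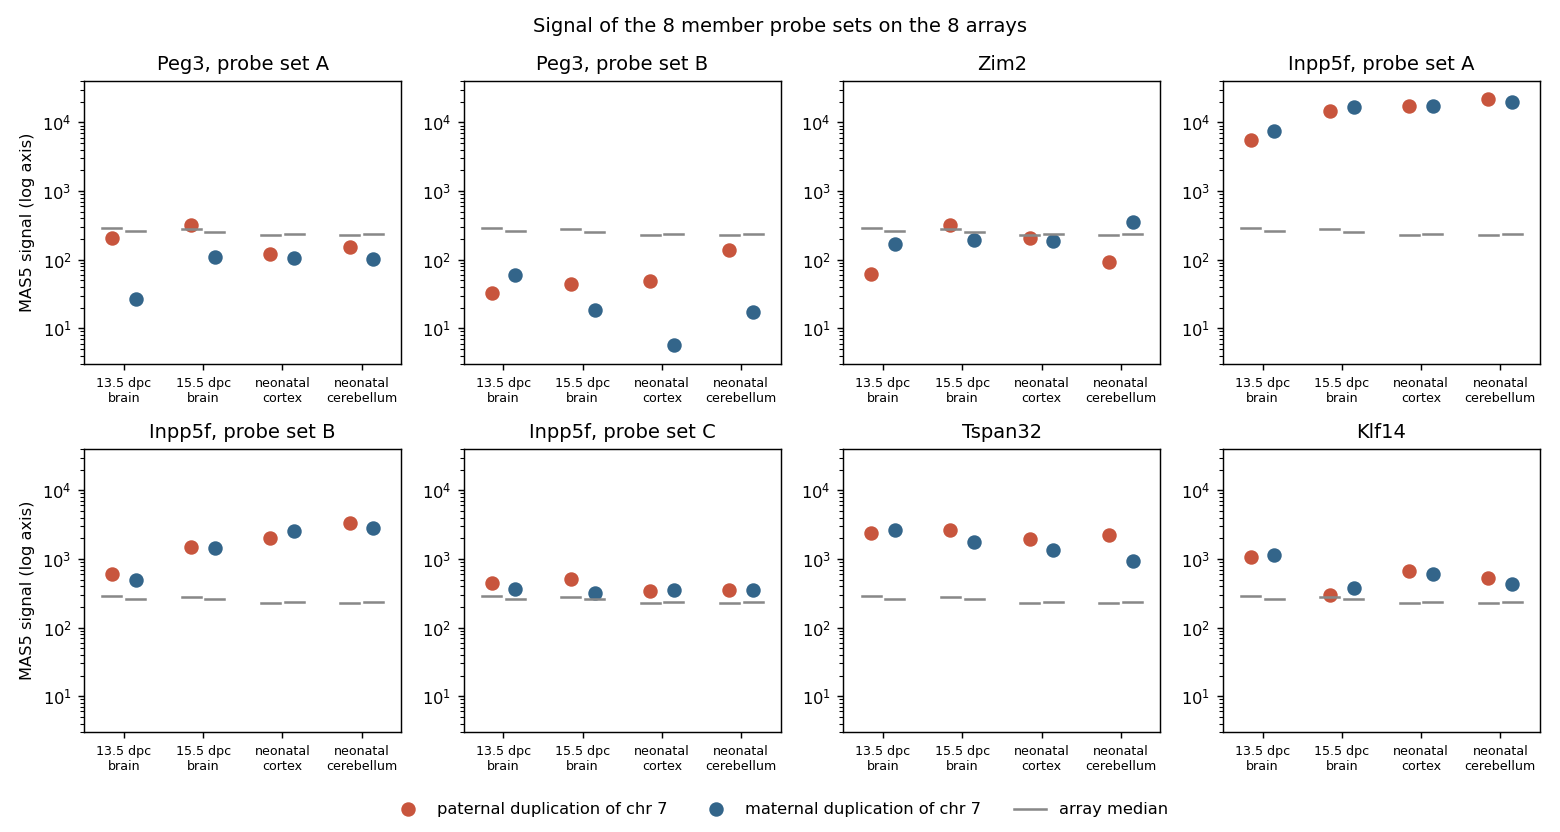
MAS5 signal (log axis) of the 8 probe sets of the 5 genes in each context, with the paternal-7 array in red left of the maternal-7 array in blue and a grey bar at the median of that array. Inpp5f probe sets A and B climb with age, Klf14 dips at 15.5 dpc to 296.4 and 377.9 signal units, and both Peg3 probe sets and Zim2 lie around or below the array medians.

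The start of Peg3 lies in a region known to be methylated on the mother's copy. The 250 bases before the start of Peg3 and, for comparison, of Inpp5f and Tspan32, the bright members of distal chromosome 7, are given here from RefSeq on GRCm38.p6, 5′ to 3′ on the strand of the gene, with each CG dinucleotide, the letters that DNA methylation marks, in capitals.
Peg3, chr7:6730420-6730669, minus strand: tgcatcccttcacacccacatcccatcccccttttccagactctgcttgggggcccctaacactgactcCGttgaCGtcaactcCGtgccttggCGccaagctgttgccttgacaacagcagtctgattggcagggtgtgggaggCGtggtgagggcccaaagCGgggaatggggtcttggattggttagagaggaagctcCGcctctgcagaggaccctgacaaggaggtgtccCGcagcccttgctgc
Inpp5f, chr7:128611115-128611364, plus strand: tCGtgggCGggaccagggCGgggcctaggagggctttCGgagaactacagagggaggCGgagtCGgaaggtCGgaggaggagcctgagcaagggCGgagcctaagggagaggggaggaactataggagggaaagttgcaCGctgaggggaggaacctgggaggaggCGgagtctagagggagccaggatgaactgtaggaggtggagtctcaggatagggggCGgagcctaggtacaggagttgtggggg
Tspan32, chr7:143004796-143005045, plus strand: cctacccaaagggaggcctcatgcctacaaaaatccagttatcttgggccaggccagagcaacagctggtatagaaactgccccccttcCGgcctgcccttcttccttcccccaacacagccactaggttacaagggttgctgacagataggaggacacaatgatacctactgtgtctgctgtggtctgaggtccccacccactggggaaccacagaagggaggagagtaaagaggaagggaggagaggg
The letters CG, which read the same on both strands, occur 8 times before Peg3, 11 times before Inpp5f and 1 time before Tspan32. Among 32851 RefSeq promoters cut to the same 250 bases the median was 6, and 43%, 35.6% and 92.1% of them held at least 8, 11 and 1. Zim2, with 8 occurrences, equals Peg3. The counts describe these windows only, and no methylation was measured. The Inpp5f window lies before the start of the gene, whereas the variant expressed from the father's copy starts within it.

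Both Peg3 probe sets stayed near or below the array median, and probe set A read higher with the paternal duplication in all 4 contexts. In paternal-7 arrays it read 208.7 signal units at 13.5 dpc, 317.4 at 15.5 dpc, 119.0 in cortex and 154.4 in cerebellum. In maternal-7 arrays it read 26.4, 109.2, 107.0 and 103.3 in the same order, where the Snhg14 probe sets read 0.262 to 38.8. How much of the probe set A signal comes from Peg3 RNA was not tested. The lowest paternal-7 signal lay above the highest maternal-7 signal, so the 2 kinds did not overlap in probe set A, as in 1.45% of the 9290 probe sets too dim to test. The log2 differences were 1.65 at 13.5 dpc, 1.16 at 15.5 dpc, 0.10 in cortex and 0.40 in cerebellum, with a mean of 0.83 ± 0.71 (SD, n = 4 contexts). A higher signal in all 4 paternal-7 arrays was found in 10.3% of the dim probe sets and in 9.67% of those tested, and the exact two-sided sign-flip permutation test over 4 pairs gave p = 0.125, the smallest that 4 pairs allow. In the limma fit without a filter on dim probe sets, probe set A differed by 0.83 ± 0.28 (SE, unadjusted p = 0.0235, adjusted p = 0.672).

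Peg3 probe set B was dimmer and shared the direction in 3 of 4 contexts. It read 32.8 at 13.5 dpc, 44.4 at 15.5 dpc, 49.2 in cortex and 139.3 in cerebellum in paternal-7 arrays, against 60.7, 18.8, 5.7 and 17.4 in maternal-7 arrays. Its signals lay below the array median on all 8 arrays, so that no fold is given. The mean log2 difference was 0.54 ± 0.73 (SD, n = 4 contexts, exact sign-flip permutation p = 0.25), and 39.4% of the probe sets too dim to test were higher in 3 or 4 paternal-7 arrays. Without the filter limma gave 0.54 ± 0.28 (SE, adjusted p = 0.688). In probe set A the difference was larger in the embryonic contexts and in probe set B in the neonatal ones. The neonatal minus embryonic contrast of the duplication effect was -1.16 ± 0.30 for A (adjusted p = 0.61) and 1.05 ± 0.41 for B (adjusted p = 0.646) in the unfiltered limma fit, so that the 2 probe sets pointed opposite ways and neither passed.

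Zim2, the neighbour of Peg3, showed no common direction between the duplications. Its paternal-7 arrays read 61 at 13.5 dpc, 321.4 at 15.5 dpc, 207.0 in cortex and 93.5 in cerebellum, and its maternal-7 arrays 169.2, 193.0, 186.4 and 350.2. Paternal-7 was higher in 2 of 4 contexts and the kinds overlapped widely. On the log2 scale Zim2 differed by -0.41 ± 0.33 (SE, limma adjusted p = 0.701), against a background of 0.00756% of tested probe sets called for the duplication. No comparison of contexts passed the test for Zim2 either. It stood at 0.91 ± 0.47 at 15.5 dpc over 13.5 dpc (limma adjusted p = 0.312) and 0.03 ± 0.47 in cortex over cerebellum (adjusted p = 0.997). Its SE was the largest among the 6 tested probe sets.

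Among the members outside proximal chromosome 7, Tspan32 had the largest difference between the duplications, and it did not pass the test. It read 2398 at 13.5 dpc, 2628 at 15.5 dpc, 1946 in cortex and 2240 in cerebellum in paternal-7 arrays, against 2613, 1762, 1371 and 930.4 in maternal-7 arrays. Paternal-7 was higher in 3 of 4 contexts, as it was in 36.3% of tested probe sets at 3 or 4 of 4, and the kinds overlapped through the 13.5 dpc pair. The paternal-7 arrays spread little, at 2303 ± 286.1 signal units, and the maternal-7 arrays more, at 1669 ± 715.0 (SD, n = 4 contexts each). On the log2 scale Tspan32 differed by 0.54 ± 0.22 (SE, limma unadjusted p = 0.0457, adjusted p = 0.573), and 5.46% of tested probe sets differed by at least as much. Its widest pair was the cerebellum, 2240 against 930.4 signal units or 2.41-fold, and without either cerebellum array the fitted difference was 0.31, the lowest among the fits that left out 1 array each.

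Inpp5f and Klf14 did not pass the test between the duplications. Inpp5f stood at -0.11 ± 0.15 in probe set A, 0.06 ± 0.16 in B and 0.19 ± 0.16 in C (limma adjusted p = 0.835, 0.911 and 0.711). Klf14 stood at 0.00 ± 0.15 (adjusted p = 0.993), with averages of 641.4 ± 324.8 in paternal-7 arrays and 638.4 ± 349.1 in maternal-7 arrays (SD, n = 4 contexts each). Of the 6 tested member probe sets 0 were called for the duplication in limma, and 1, that of Tspan32, had an unadjusted p under 0.05, as did 1147 of the 13221 tested. Whether the duplication effect differed between neonatal and embryonic contexts was tested as well. The difference was 0.63 ± 0.38 for Tspan32 (limma adjusted p = 0.627), 0.39 ± 0.25 for Klf14 (adjusted p = 0.642), 0.37, -0.20 and -0.45 for Inpp5f A, B and C and -0.49 for Zim2. No member passed in limma, as for 0% of all tested probe sets, of which 1209 had an unadjusted p under 0.05.

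**Figure D2:**
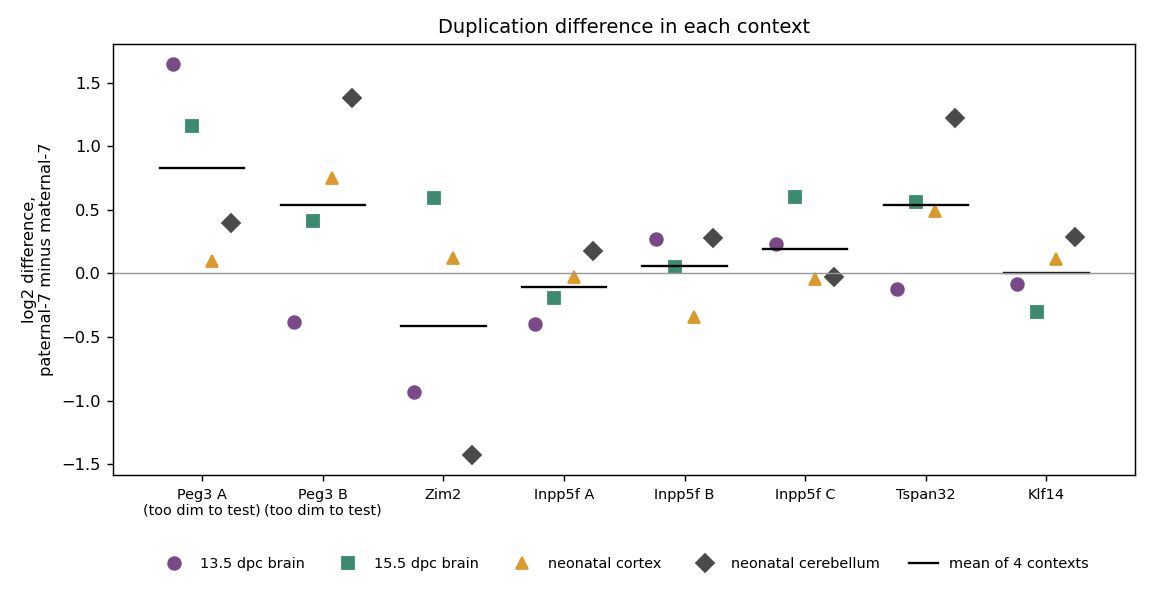
Log2 difference, paternal-7 minus maternal-7, of each probe set in each of the 4 contexts (symbols) with their mean (bar). Peg3 A lies above 0 in all 4 contexts, Tspan32 in 3, Klf14 runs from -0.30 to 0.29, and the Inpp5f probe sets run from -0.40 to 0.60.

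Inpp5f read higher at 15.5 than at 13.5 dpc, and higher again in the neonatal regions, in 2 of its 3 probe sets. Probe set A read 5601 and 7390 signal units at 13.5 dpc, 14532 and 16546 at 15.5 dpc, 17242 and 17596 in neonatal cortex and 22245 and 19592 in neonatal cerebellum, where each pair gives paternal-7 and then maternal-7. All 4 neonatal signals lay above all 4 embryonic ones, as in 11.8% of tested probe sets, and both 13.5 dpc signals lay below the 6 others, as in 13.5%. The neighbouring contexts did not overlap in this order, as in 2.09% of tested probe sets. The order was read off Inpp5f itself, so that this share is a description and no test. At 15.5 dpc over 13.5 dpc Inpp5f A was higher by 1.26 ± 0.21 on the log2 scale (SE, limma adjusted p = 0.0261), 15539 ± 1425 against 6495 ± 1265 signal units (SD, n = 2 arrays each) or 2.41-fold. In limma 6.59% of tested probe sets were called between these ages, and 3.52% of tested probe sets were called as higher at 15.5 dpc. The neonatal contexts exceeded the embryonic ones by 0.93 ± 0.15 (SE, limma adjusted p = 0.0054), at 19169 ± 2297 against 11017 ± 5336 (SD, n = 4 arrays each). In that comparison 30.7% of tested probe sets were called, 14.3% as higher, and the median difference of all tested probe sets was -0.16. The embryonic side pools both ages. Against 15.5 dpc alone, which was not tested, Inpp5f A was 1.12-fold higher in cortex and 1.35-fold higher in cerebellum.

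Inpp5f probe set B followed the same course. It read 600.8 and 487.4 at 13.5 dpc, 1499 and 1443 at 15.5 dpc, 2032 and 2589 in cortex and 3379 and 2782 in cerebellum, in the same order without overlap (2.09% of tested probe sets). The log2 differences were 1.35 ± 0.22 at 15.5 dpc over 13.5 dpc (SE, limma adjusted p = 0.0257, 2.72-fold) and 1.50 ± 0.16 for neonatal over embryonic contexts (adjusted p = 0.00153). Against 13.5 dpc, the neonatal cerebellum signal was 5.67-fold higher in B and 3.24-fold higher in A. Against 15.5 dpc, B was 1.56-fold higher in cortex and 2.08-fold higher in cerebellum. Inpp5f A and B were among the 362 probe sets, or 2.74% of those tested, called as higher in both limma comparisons. These were 15.5 over 13.5 dpc and neonatal over embryonic contexts, which share the 15.5 and 13.5 dpc arrays. Cortex minus cerebellum was -0.26 ± 0.21 in A (limma adjusted p = 0.883) and -0.41 ± 0.22 in B (adjusted p = 0.768), neither past the test, where 0.325% of tested probe sets were called.

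Inpp5f probe set C did not share this course. It read 444.1 and 370.2 at 13.5 dpc, 516.0 and 321.7 at 15.5 dpc, 343.4 and 354.3 in cortex and 347.9 and 355.9 in cerebellum, and its 15.5 dpc pair spanned the signals of all other contexts. Its log2 differences were 0.01 ± 0.22 at 15.5 dpc over 13.5 dpc (limma adjusted p = 0.988) and -0.19 ± 0.16 for neonatal over embryonic contexts (adjusted p = 0.382). Over the 8 arrays, probe sets A and B correlated at 0.95 and C with A at -0.45, a description of log2 signals with no test. The sources used here do not say which transcript variants of Inpp5f the 3 probe sets measure.

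The tested neuron markers rose with Inpp5f at 15.5 over 13.5 dpc and in neonatal over embryonic contexts. Rfx4, a marker of neural progenitors, was higher in both as well, though it passed only in neonatal over embryonic contexts. Kcnj13, of the choroid plexus, passed only at 15.5 over 13.5 dpc. Of 6 neuron markers listed 3 were on the array and 2 could be tested, Syt1, the calcium sensor of synaptic vesicles, and Rbfox3, a splicing factor of mature neurons. Both rose at 15.5 dpc over 13.5 dpc (1.12 ± 0.21 and 1.06 ± 0.23, SE, limma adjusted p = 0.0339 and 0.0482) and in neonatal over embryonic contexts (1.59 ± 0.15 and 1.32 ± 0.17, limma adjusted p = 0.00123 and 0.00263). Their summed signal with Snap25, which lay below the median on 7 arrays, ran from 22416 to 28853 in neonatal and from 5397 to 14075 in embryonic arrays. Rfx4, the only tested marker of 7 listed for neural progenitors, rose in neonatal over embryonic contexts (0.81 ± 0.16, SE, limma adjusted p = 0.0117). It stood at 0.96 ± 0.23 at 15.5 dpc over 13.5 dpc (limma adjusted p = 0.0565), close to the 1.06 ± 0.23 of Rbfox3. The choroid plexus marker Kcnj13 rose at 15.5 dpc over 13.5 dpc. In neonatal over embryonic contexts it stood at -0.04 ± 0.13 (SE, limma adjusted p = 0.81). Ttr and Clic6, the other tested choroid plexus markers, were called in neither comparison. The part of cell content in the Inpp5f result was not tested, and since the neonatal samples are dissected regions and the embryonic ones whole brain, age and dissection cannot be told apart.

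The calls of Inpp5f at 15.5 dpc over 13.5 dpc were mostly lost with an array left out, while the differences kept their direction. Without either cortex array the differences stayed at 1.26 in A and 1.35 in B. Each such fit has fewer residual degrees of freedom than the full one. For every probe set, leaving out either cortex array gives the same result for 15.5 over 13.5 dpc. The same holds for either cerebellum array, so that the fits are not all distinct. With each of the 8 arrays left out in turn, Inpp5f A kept a difference between 1.07 and 1.45 and was called in 1 of 8 fits, the one without the maternal-7 13.5 dpc array (adjusted p from 0.0443 to 0.137), and B kept 1.21 to 1.49 and was called in 0 of 8 (0.0531 to 0.106). The calls for neonatal over embryonic contexts held in 8 of 8 such fits for both probe sets, with differences of 0.83 to 1.02 in A and 1.37 to 1.64 in B.

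Klf14 was highest at 13.5 dpc, lowest at 15.5 dpc and between these in both neonatal regions. It read 1073 and 1141 signal units at 13.5 dpc, 296.4 and 377.9 at 15.5 dpc, 660.2 and 605.9 in cortex and 536.0 and 428.8 in cerebellum. No neighbours in this order overlapped, and of all tested probe sets 0.726% had both 13.5 dpc signals above the 4 neonatal ones and these above both 15.5 dpc signals. The order was read off Klf14 itself, so that this share is a description and no test. Both 15.5 dpc signals lay below the 6 others, as in 3.56% of tested probe sets, and both 13.5 dpc signals lay above the 6 others, as in 17.4%. The log2 difference at 15.5 dpc over 13.5 dpc was -1.57 ± 0.21 (SE, limma adjusted p = 0.017), with 337.2 ± 57.6 at 15.5 dpc against 1107 ± 48.3 at 13.5 dpc (SD, n = 2 arrays each), or 3.31-fold lower at 15.5 dpc. Of tested probe sets 3.07% were called as lower at 15.5 dpc, and 2.13% differed by at least as much as Klf14 in either direction.

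Over both neonatal regions against both embryonic ages Klf14 did not pass the test, at 557.7 ± 99.9 in neonatal and 722.0 ± 446.5 signal units in embryonic arrays (SD, n = 4 each). The contrast came to -0.15 ± 0.15 (SE, limma adjusted p = 0.456), near the median of all tested probe sets. Cortex stood above cerebellum by 0.36 ± 0.21 without passing the test (limma adjusted p = 0.798). With each array left out in turn the 15.5 dpc difference stayed between -1.77 and -1.36 and was called in 4 of 8 fits, with adjusted p from 0.0477 to 0.0954. It was not called without either cortex array, the paternal-7 15.5 dpc array or the paternal-7 13.5 dpc array. Of the 3 choroid plexus markers tested, 1, Kcnj13, a potassium channel gene, was higher at 15.5 dpc than at 13.5 dpc (1.03, limma adjusted p = 0.0314). The summed choroid plexus markers, mostly Ttr (limma adjusted p = 0.0796), read 50653 and 58548 at 15.5 dpc against 24815 and 37443 at 13.5 dpc, and the 2 mesenchyme markers on the array, Col1a2 and Dcn, summed to 281.0 and 223.0 at 15.5 dpc against 530.4 and 379.1 at 13.5 dpc. Of the mesenchyme markers Dcn did not pass (-0.47 ± 0.20, limma adjusted p = 0.22) and Col1a2 was too dim to test. The part of these tissues in the Klf14 result was not tested.

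Tspan32 was the only bright member without a call between contexts. Its neonatal arrays averaged 1622 ± 585.6 and its embryonic arrays 2350 ± 405.6 signal units (SD, n = 4 each), with overlap. The log2 contrasts of Tspan32 were -0.58 ± 0.22 for neonatal over embryonic contexts (SE, limma adjusted p = 0.0866), -0.21 ± 0.31 at 15.5 dpc over 13.5 dpc (adjusted p = 0.744) and 0.17 ± 0.31 in cortex over cerebellum (adjusted p = 0.976). The first of these passed under quantile normalization (-0.72, adjusted p = 0.0394), with a trended robust variance (-0.58, adjusted p = 0.0441) and without the paternal-7 13.5 dpc array (-0.79, adjusted p = 0.0432), and other arrays left out gave adjusted p-values of up to 0.244. Blood and immune cells, which use Tspan32, had 3 of 16 listed markers on the array. Ptprc, the common leukocyte antigen, was below the array median on all 8 arrays, and the 3 markers summed to 498.6 to 674.4 in neonatal and 392.4 to 669.1 in embryonic arrays. Of the others, Cd53 was lower (-0.72 ± 0.17, adjusted p = 0.0233) and Laptm5 higher (0.72 ± 0.15, adjusted p = 0.0135) in neonatal arrays.

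**Figure D3:**
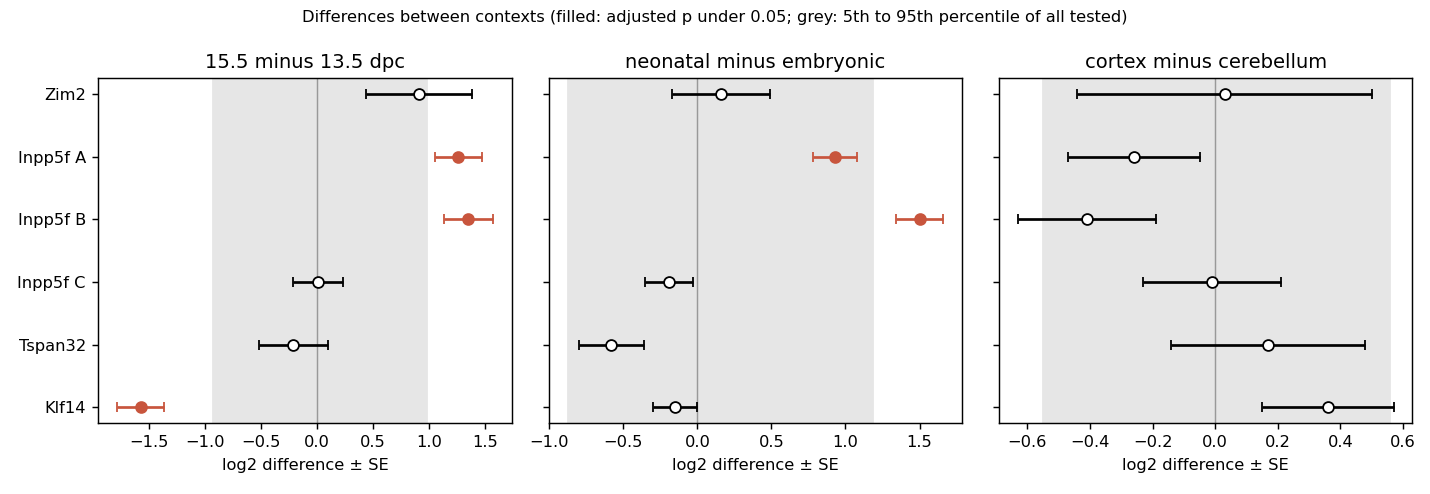
Log2 differences ± SE of the 6 tested member probe sets in 3 comparisons of contexts, filled where the limma adjusted p is under 0.05, over a grey band from the 5th to the 95th percentile of all tested probe sets. Inpp5f A and B and Klf14 lie outside the band between 15.5 and 13.5 dpc (-0.93 to 0.98), and Inpp5f B for neonatal over embryonic contexts (-0.88 to 1.19).

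Genes of the same families and neighbourhoods were counted by their brightest probe set. Of 30 listed inositol lipid phosphatases, which like Inpp5f remove phosphates from membrane inositol lipids, 8 were tested. In neonatal over embryonic contexts 3 rose and 1 fell, where 14.3% of all tested probe sets were called as higher and 16.4% as lower. The median was 0.37, beside -0.16 for all tested probe sets. Synj1, the synaptojanin of synaptic vesicle recycling, rose by 1.17 ± 0.13 (SE, limma adjusted p = 0.00195), Ocrl, the phosphatase of Lowe syndrome, by 0.78 ± 0.15 and Mtmr7 by 1.38 ± 0.41, while Mtmr11 fell by 0.62 on the log2 scale. Between 15.5 and 13.5 dpc 0 of the 8 were called in limma, where 6.59% of all tested probe sets were. The largest difference among the 8 was that of Mtmr11, at -0.89 ± 0.21 (limma adjusted p = 0.0593).

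Of 16 other Kruppel-like factors 4 were tested and 1, Klf3, a repressor with broad expression, was lower at 15.5 dpc than at 13.5 dpc (-0.79 ± 0.18, SE, limma adjusted p = 0.0483). Klf3 read 2470 and 2855 at 15.5 dpc against 4477 and 4777 at 13.5 dpc, and unlike Klf14 it was also lower in neonatal than embryonic contexts (-0.40 ± 0.12, limma adjusted p = 0.0482). Klf6, Klf11 and Klf12 stood at -0.43, 0.05 and 0.31 between the embryonic ages without a call. Of 25 other tetraspanins 5 were tested. At 15.5 dpc 2 were lower than at 13.5 dpc, where 3.07% of all tested probe sets were called as lower. These were Tspan9 (-2.12 ± 0.24, limma adjusted p = 0.0112) and Tspan11 (-1.29 ± 0.20, adjusted p = 0.0237). In neonatal arrays 3 were lower than in embryonic ones, Tspan11 (-0.95 ± 0.14), Tspan18 (-0.60 ± 0.13) and Cd53, where 16.4% of all tested probe sets were called as lower. The median of the 5 was -0.60, beside -0.16 for all tested probe sets and -0.58 for Tspan32.

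Of 8 genes listed around Inpp5f 6 were tested, and the 5 on chromosome 7, with Wdr11, Tial1 and Mcmbp as the brightest, stood between -0.33 and 0.09 at 15.5 dpc over 13.5 dpc without a call. Grk5, called at 0.92 ± 0.20 (SE, limma adjusted p = 0.0437), lies on chromosome 19 in mouse and is no neighbour there. For neonatal over embryonic contexts 0 of these 6 were called by limma, where 30.7% of all tested probe sets were, Inpp5f A and B among them. Of 14 genes listed from the imprinted regions of chromosome 6 that hold Mest, Peg10 and Nap1l5, 6 were tested. Between the embryonic ages 0 were called, where 6.59% of all tested probe sets were, with Sgce at -0.95 ± 0.30 (limma adjusted p = 0.12). In neonatal over embryonic contexts Herc3 (1.27 ± 0.28) and Ppp1r9a (0.77 ± 0.13), which encodes the synaptic scaffold neurabin, rose and Cep41, a gene of the cilium next to Mest, fell by 0.67 on the log2 scale. Of 13 genes of the Kcnq1 region around Tspan32 only Kcnq1ot1, the noncoding RNA of the father's copy, was tested, and it spread from 87.5 to 723.5 signal units without a call. Of the 5 other genes listed from the Peg3 region 0 were among the named probe sets. For the duplication, 0 of the genes tested in these lists were called by limma.

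**Figure D4:**
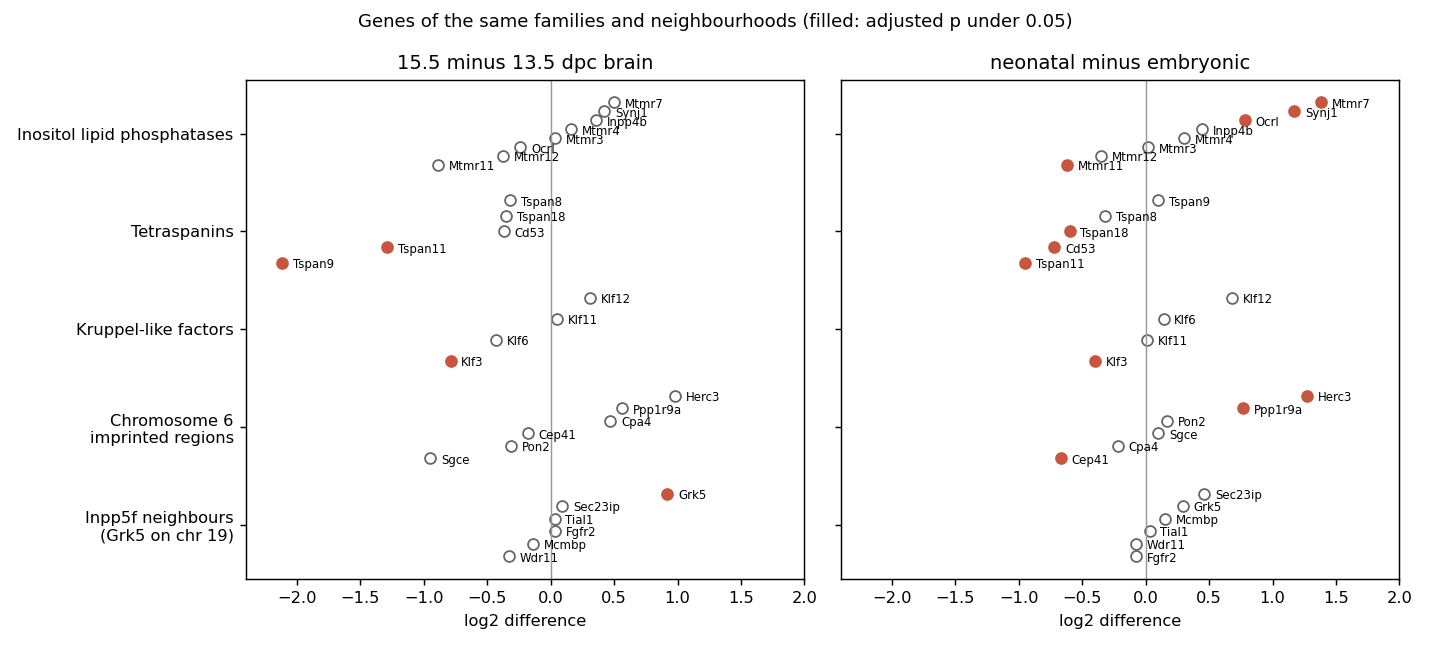
Log2 differences of the tested genes of 5 lists (rows) at 15.5 over 13.5 dpc (left) and for neonatal over embryonic contexts (right), filled where the limma adjusted p is under 0.05. Inositol lipid phosphatases lie mostly above 0 and tetraspanins mostly below 0 in the right panel, with medians of 0.37 and -0.60.

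The genes whose log2 signal ran most like each member over the 8 arrays were named by Pearson's r as a description, since the arrays share contexts. Inpp5f probe set A ran with Nsd2, a histone methyltransferase gene (r = 0.997), Ralyl (0.995) and Zcchc12 (0.994), and 5.9% of named tested probe sets reached 0.9 with it. Klf14 ran with Myh10, a nonmuscle myosin gene (0.966), Nt5e (0.959) and Kif26b (0.946), and 0.44% reached 0.9. For Tspan32 the nearest were AU040972 (0.952), Mybpc1 (0.945) and Ttn (0.936), of which Mybpc1 and Ttn read at most 597.8 and 389.1 signal units. For Zim2 they were Atpif1 (0.946), Pyroxd2 (0.910) and Cdk16 (0.907). Few probe sets reached 0.9 with Tspan32 (0.205%) or Zim2 (0.0307%).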

How the data were processed

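Brain RNA, extracted with Trizol and RNeasy columns and turned into biotinylated cRNA per the labels' protocols, was measured on 8 Affymetrix 430B arrays. The deposited table holds linear intensity values from MAS5 per the submitters' processing notes, and the sources used here name no version. They hold no detection calls. The intensity values were not normalized further. Precision is limited by there being 8 arrays.

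Probe sets were named through the platform annotation, with symbols updated through the RefSeq table of GRCm38.p6 (14661 with 1 symbol, 245 with several, 7605 with none, 64 controls left out). The files name no genome build. Sequences are RefSeq's.

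To limit noise a pseudocount of 58.5 was added before log2 (each array's 20th percentile, then the median of these), which understates differences of dim probe sets. The limma models (version 3.58.1, R 4.3.3) left 3 degrees of freedom, or 2 with the interaction, and were tested on simulated data, with Benjamini-Hochberg adjustment over 13221 probe sets at 0.05. Named were all member probe sets, up to 4 genes of each list (called ones, else the brightest), all marker genes the results touch and the 3 most alike genes. The members and lists were chosen with earlier results of these data known. No 2 arrays share a group, so outliers within groups were not sought.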

Additional observations from a re-analysis of the deposited data

How the results depend on the processing

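Quantile normalization, median centring, a floor of 1, pseudocounts of 16 and 100, no filter, a filter of at least 4 arrays, a trended robust variance and arrays or pairs left out were tried. In these fits 0 member probe sets were called for the duplication, for cortex over cerebellum or for the difference in duplication effect. Under the filter of 4 arrays Zim2 was not tested.

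For the duplication, the 1 probe set called became 0 with a floor of 1, without a filter and without both neonatal pairs, 2 with a pseudocount of 100 and with the strict filter, 3 with a trended robust variance and 4 without both embryonic pairs, and 0 to 2 with an array left out. Between 15.5 and 13.5 dpc, 871 became 459 with the floor, 207 without a filter, 1409 with the trended variance, 0 without both neonatal pairs and 0 to 522 with an array left out. The 3 member calls there became 1 without a filter (Klf14), 0 without both neonatal pairs (1 residual degree of freedom) and 0 to 2 with an array left out. Neonatal over embryonic gave 4055 calls, and 1827 to 3523 with an array left out. Cortex over cerebellum gave 43, and 22 with the floor, 27 with a pseudocount of 16, 11 without a filter, 84 with the trended variance and 0 to 21 with an array left out.

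Differences with no call changed sign as follows, and the cause was not tested. For the duplication, Inpp5f A was 0.08, B -0.03 and C -0.03 without both embryonic pairs, and Klf14 -0.02 with quantile normalization, -0.03 with median centring and -0.19 without both neonatal pairs. With an array left out Inpp5f B ran from -0.01 to 0.20 and Klf14 from -0.09 to 0.11. Between 15.5 and 13.5 dpc Inpp5f C then ran from -0.26 to 0.28 and Tspan32 from -0.65 to 0.23. For neonatal over embryonic contexts Zim2 ran from -0.18 to 0.50, and Klf14 was 0.02 with median centring. For cortex over cerebellum Zim2 ran from -0.64 to 0.71, Inpp5f C from -0.16 to 0.14 (0.00 with quantile normalization) and Tspan32 from -0.29 to 0.62. The interaction ran from -1.26 to 0.28 for Zim2 and from -0.50 to 0.11 for Inpp5f B. The median of all tested probe sets for neonatal over embryonic contexts was -0.16, and -0.06 with quantile normalization and 0.02 with median centring. Context entered each model, so that every duplication effect is paired by context, and no further replicate block exists since the labels give no replicate numbers.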
